A study of Mus musculus with 8 samples.

Results

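The carriers described here are the genes of 10 solute carrier families that move amino acids, sugars, monocarboxylates and a few related small molecules across membranes. They were taken by symbol: every gene of the RNA tables named Slc1a, Slc2a, Slc3a, Slc5a, Slc6a, Slc7a, Slc16a, Slc36a, Slc38a or Slc43a followed by a number. This gave 48 of 11315 genes, with 5 members of Slc1a, 6 of Slc2a, 1 of Slc3a, 4 of Slc5a, 6 of Slc6a, 8 of Slc7a, 8 of Slc16a, 2 of Slc36a, 7 of Slc38a and 1 of Slc43a. The symbol Slc7a6os fits the rule but names a neighbouring gene that is not a carrier, and it was kept in the counts. The same 48 genes held 2173 of the 1497075 CpG positions read for 5-hydroxymethylcytosine (5hmC), of which 1944 lay in gene bodies, 688 in promoters and 459 in both.

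The samples were cells sorted by fluorescence from brains of C57BL/6 mice at an age of 60 postnatal days. Cells labelled adult oligodendrocyte progenitors (aOPC) were taken from Pdgfra-H2BEGFP mice, in which the Pdgfra gene drives a green histone, and adult oligodendrocytes (aOL) from Plp-EGFP mice, in which the promoter of a myelin gene drives EGFP. The data used here are RNA from 2 libraries of each population, replicates 2 and 3, and 5hmC read in the replicates of those numbers by reduced representation hydroxymethylation profiling (RRHP), which counts reads that start at CCGG sites whose CpG carries 5hmC. The study also lists a replicate 1 of each population, which was not analysed here. No label names a lesion, a treatment or a mutation, and since each population came from its own reporter line, population and line cannot be told apart. The RNA titles of the aOL libraries call the cells pre-myelinating while their protocol calls them myelinating, and the tissue label of the aOL RRHP libraries names the Pdgfra reporter where their titles name Plp; the titles were used.

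Solute carriers set what a glial cell can take up, release and pass on. Oligodendrocytes are known to import glucose through the GLUT proteins of the Slc2a family and to exchange lactate with axons through the monocarboxylate carriers of the Slc16a family. Amino acid carriers supply protein synthesis, feed the lysosomal sensing of nutrients by mTORC1, and clear glutamate, glycine and GABA from the space around synapses. 5hmC is made from 5-methylcytosine by TET enzymes and is most common in the bodies of expressed genes in brain.

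The RNA libraries did not separate by cell type markers as their labels would have it. The 12 oligodendrocyte markers had median log2 levels of 17.8 and 17.2 in aOPC, against 17.5 and 17.6 in aOL, so myelin transcripts were as abundant in the cells labelled progenitors. The 10 progenitor markers tested had medians of 8.75 and 6.61 in aOPC replicates 2 and 3, against 6.80 and 6.87 in aOL replicates 2 and 3. The median of aOPC replicate 3 thus lay below both aOL medians. In 5 of the 10 both aOL libraries lay below both aOPC libraries, and in 1 both lay above. Pdgfra was among the 5, at 7.54 and 5.47 in aOPC against 4.98 and 1.63 in aOL. Markers of astrocytes, microglia, neurons and endothelium lay below the oligodendrocyte markers, with medians between 6.50 and 9.90 over all libraries. The astrocyte medians, 9.90 and 9.44 in aOPC and 8.19 and 7.47 in aOL, were above the progenitor medians in every library. The microglia medians were above them in every library but aOPC replicate 2. Those of endothelium were above them in replicate 3 of both populations, and those of neurons in aOL replicate 2 alone. Of the 4 endothelial markers tested 2 were above 0 in difference and the median was -0.05, with Cldn5 at 0.33 and 1.80 in aOPC against 5.92 and 7.13 in aOL and Itm2a the reverse, at 9.20 and 9.03 against 6.95 and 7.05. The 4 Y-linked genes of the tables lay between 9.57 and 12.4 in aOPC replicate 2 and at 1.80 or below in the other RNA libraries. RRHP totals ran from 7113237 reads in aOPC replicate 2 to 27057859 in aOL replicate 3. In bulk samples fewer cells of a type and less RNA per cell cannot be told apart.

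Sequences of a few called sites of each direction are shown first, because several of the 5hmC results turn on where CCGG lies. They were read from the GRCm38 (mm10) reference, run 5′ to 3′ on the strand of the read, and carry the CCGG of the site in capitals. The first group had reads in aOPC and none or 1 in aOL.
Slc7a2 intron, chr8:40896028-40896087, plus strand: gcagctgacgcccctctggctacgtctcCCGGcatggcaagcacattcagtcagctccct
Slc7a2 intron, chr8:40896209-40896268, minus strand: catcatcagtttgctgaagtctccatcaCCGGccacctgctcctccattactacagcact
Slc5a5 promoter, chr8:70893359-70893418, plus strand: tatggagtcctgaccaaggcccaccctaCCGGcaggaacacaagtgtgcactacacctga
Slc5a5 coding exon, chr8:70884978-70885037, minus strand: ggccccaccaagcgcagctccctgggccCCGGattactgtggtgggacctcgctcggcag
Slc7a10 intron, chr7:35192436-35192495, plus strand: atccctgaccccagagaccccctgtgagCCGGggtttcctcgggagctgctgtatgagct

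The second group had reads in aOL and at most 3 in any aOPC library. The Slc16a7 promoter site falls in an annotated untranslated exon and is given with a shorter flank.
Slc16a7 promoter, chr10:125328639-125328668, plus strand: ctacatttaacctCCGGattttccttctgt
Slc16a7 intron, chr10:125265094-125265153, minus strand: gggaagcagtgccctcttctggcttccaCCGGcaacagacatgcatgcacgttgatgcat
Slc7a2 intron, chr8:40885732-40885791, minus strand: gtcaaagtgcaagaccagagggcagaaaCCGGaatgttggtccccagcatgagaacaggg
Slc38a1 intron, chr15:96603606-96603665, plus strand: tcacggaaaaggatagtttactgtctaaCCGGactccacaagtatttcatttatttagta
Slc6a9 coding exon, chr4:117863986-117864045, minus strand: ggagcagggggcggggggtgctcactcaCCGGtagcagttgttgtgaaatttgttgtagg
All 2173 carrier positions lay at a CCGG of this genome.

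Carrier RNA ranged from 1.57 for Slc16a11 to 16.79 for Slc38a2 on the log2 scale. Levels of different genes were compared per length, as the deposited log2 normalized value averaged over the 4 libraries minus log2 of the exon length in kb. On this scale the most abundant carriers described here were the glutamine and alanine carrier Slc38a2 at 13.95 and the glycine carrier Slc6a9 (GlyT1) at 13.50. In aOPC their order was not resolved, at 13.45 and 13.30 for Slc38a2 against 13.40 and 13.34 for Slc6a9. The lactate and pyruvate carrier Slc16a1 (MCT1) followed at 12.25, the glucose carrier Slc2a1 (GLUT1) at 11.73 and Slc3a2, the CD98 heavy chain that brings Slc7 light chains to the surface, at 11.58. The neighbours Slc2a1 and Slc3a2 lay closer together than their libraries did, so their order is not resolved. The lowest were the proton and myo-inositol carrier Slc2a13 at 2.86, the light chain Slc7a8 (LAT2) at 2.98 and the monocarboxylate family member Slc16a11 at 3.05. This order is one of means and does not hold in every library. Slc16a11 stood at 5.95 and 5.34 per kb in aOPC and at 0.41 and 0.48 in aOL, and Slc7a8 ran from -0.23 to 4.70. Exons of Ccdc24 on the other strand cover 38.8% of the Slc6a9 exon length, and whether counting used strand is not given in the sources used here, so the Slc6a9 level is uncertain to that extent.

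**Figure D1:**
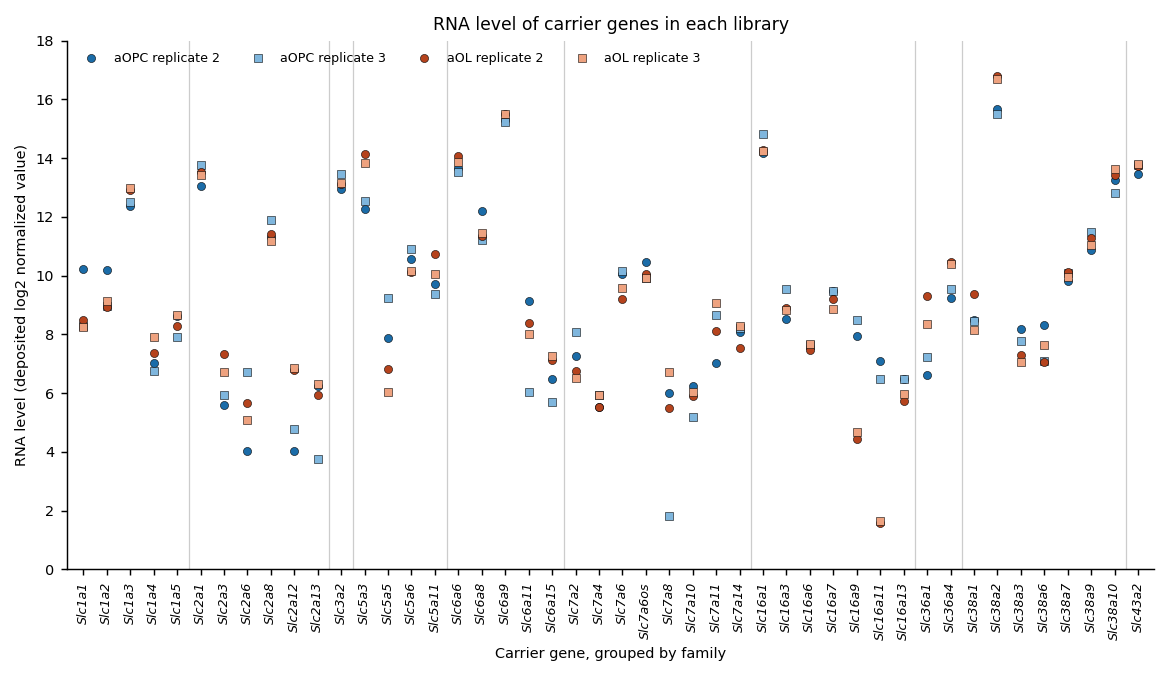
RNA level of carrier genes, as the deposited log2 normalized value on the vertical axis and the genes by family on the horizontal axis, with 1 point per library. The values run from 16.8 for Slc38a2 down to 1.57 for Slc16a11 in aOL replicate 2, and Slc16a9 and Slc16a11 have both aOL points far below both aOPC points.

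Within families the leading member was Slc1a3 at 10.56 per kb against 5.29 for Slc1a4, and Slc2a1 against Slc2a13. Slc5a3 led the Slc5a family at 9.75 with Slc5a5 lowest at 5.94, and Slc6a9 led the Slc6a family with the neutral amino acid carrier Slc6a15 lowest at 4.79. Among Slc7 members Slc7a6 stood at 7.85 and Slc7a8 was lowest, while Slc7a6os, no carrier, stood at 9.77. Slc16a1 led Slc16a, Slc36a4 at 7.21 lay above Slc36a1 at 5.45, and Slc38a2 led Slc38a with Slc38a6 lowest at 4.78. Slc43a2 (LAT4), the only member of its family, stood at 10.85.

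The comparison of RNA asked which carriers differ between the libraries labelled aOPC and those labelled aOL. All 48 passed the filter on low values and were tested with the other genes (limma, 11133 genes, a call needing a p under 0.01 and, after Benjamini-Hochberg adjustment, under 0.05). None was called higher in aOL, where 0.00898% of all genes were, and 1 was called lower, where 0.0719% were. At an unadjusted p under 0.05, 10 of the 48 were higher in aOL (20.8%, against 12.1% of all genes) and 7 were lower (14.6%, against 12% of all genes). In 15 carriers both aOL libraries lay above both aOPC libraries, against 31.9% of all genes, in 9 both lay below, against 29.9%, and in 24 the groups overlapped. The median difference of the 48 was 0.08 on the log2 scale, beside 0.02 over all genes and 0.17 over 135 other Slc genes. The labels do not give the animals behind each library, and the p-values measure the spread between libraries.

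**Figure D2:**
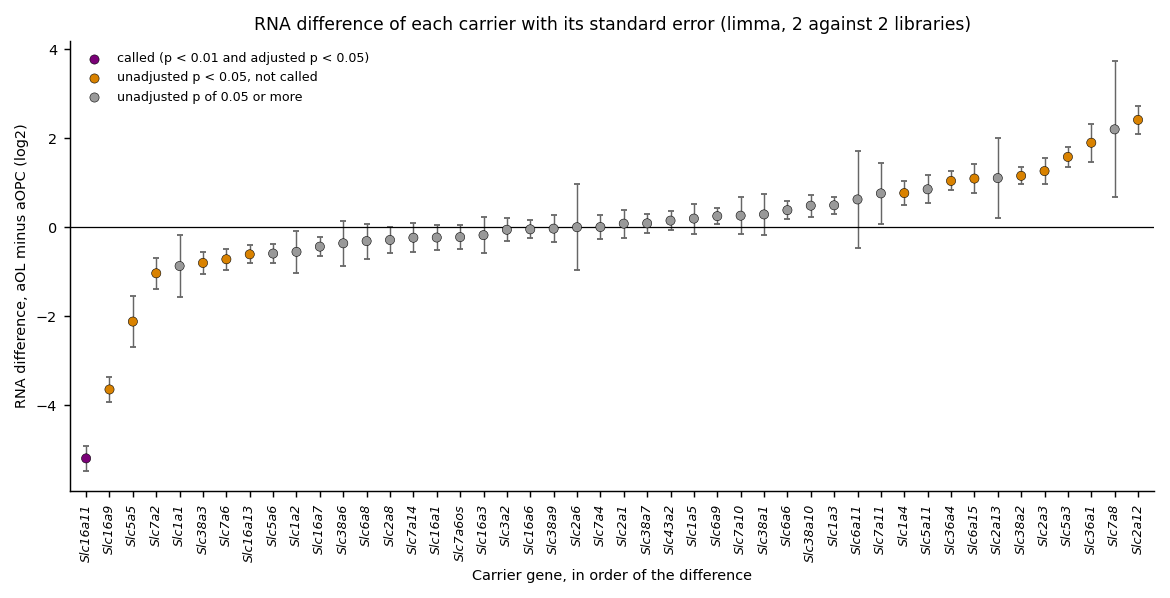
RNA difference of carriers, aOL minus aOPC on the log2 scale, with its standard error from limma over 2 against 2 libraries, in order of size. Slc16a11 at -5.20 is the only called carrier, the other carriers plotted with an unadjusted p under 0.05 lie between -3.65 for Slc16a9 and 2.41 for Slc2a12, and the gray points did not pass that threshold.

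The monocarboxylate family held the largest differences toward aOPC. Slc16a11 read 7.10 and 6.50 in aOPC on the log2 scale against 1.57 and 1.63 in aOL. Both aOL libraries were far below both aOPC libraries, and the difference of -5.20 ± 0.28 (SE) was called (limma adjusted p = 0.0469). Its aOL values are those most often given in each library, shared by 73 and 85 genes, which is where genes with almost no reads lie, so the size of the difference depends on how such genes were given a value and no fold is stated. Without the filter on low values the adjusted p was 0.0581 and the call was lost, as was every call over all 11315 genes. Slc16a11 passes that filter through aOPC alone, where it is high, so with either aOPC library left out it failed the filter and was not tested.

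Slc16a9, a carnitine carrier of the same family, read 7.93 and 8.49 in aOPC against 4.45 and 4.66 in aOL. The groups were far apart and the level was 12.5-fold lower in aOL, at -3.65 ± 0.28. The adjusted p of 0.0611 (limma) missed the threshold. Both aOL values lie under the filter of 5, so this fold rests on low values. Slc16a9 passes the filter through aOPC alone, and with either aOPC library left out it failed the filter and was not tested. Its difference was -3.54 without aOL replicate 2 and -3.76 without aOL replicate 3. Exons of Gm7097 and Gm9877 on the other strand share 13.1% and 11.2% of its exon length. Slc16a13, a neighbour of Slc16a11 on chromosome 11, read 6.47 in both aOPC libraries and 5.73 and 5.98 in aOL, a smaller difference of -0.61 ± 0.20 with an adjusted p of 0.19 (limma).

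Slc16a1 and Slc16a3, which carry lactate, overlapped between populations. Slc16a1 read 14.18 and 14.83 in aOPC against 14.29 and 14.26 in aOL, a difference of -0.23 ± 0.29 whose sign turned to 0.09 without aOPC replicate 3. Slc16a3 (MCT4) read 8.53 and 9.56 against 8.90 and 8.83, while Slc16a7 (MCT2) read 9.48 and 9.48 against 9.21 and 8.88 without overlap (limma adjusted p = 0.293).

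No sugar or inositol carrier was called. Slc2a12 (GLUT12) read 4.02 and 4.76 in aOPC against 6.78 and 6.84 in aOL, without overlap. It was 5.33-fold higher in aOL (2.41 ± 0.32, limma adjusted p = 0.112). Both aOPC values lie under the filter of 5, so this fold rests on low values. Slc2a3 (GLUT3), best known from neurons, read 5.59 and 5.94 against 7.32 and 6.73, also without overlap, and was 2.4-fold higher (1.26 ± 0.30, limma adjusted p = 0.146). Slc2a1, the main glucose carrier of glia and endothelium, read 13.04 and 13.76 in aOPC against 13.54 and 13.42 in aOL and overlapped, with a difference of 0.08 ± 0.31 that became -0.28 without aOPC replicate 2. Slc2a8, an intracellular GLUT, stayed between 11.2 and 11.9 in all libraries.

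The sodium and myo-inositol carrier Slc5a3 (SMIT1), which accumulates the osmolyte myo-inositol, was among the clearest. It read 12.29 and 12.54 in aOPC against 14.14 and 13.85 in aOL, without overlap and 2.99-fold higher in aOL (1.58 ± 0.23, limma adjusted p = 0.122). Slc5a11 (SMIT2), the second inositol carrier, read 9.71 and 9.39 against 10.74 and 10.07 and also did not overlap, with an adjusted p of 0.212 (limma). Slc5a5, the sodium and iodide symporter, was lower in aOL, at 7.87 and 9.24 in aOPC against 6.83 and 6.03, (-2.12 ± 0.58, limma adjusted p = 0.164). The multivitamin carrier Slc5a6 was a little lower in aOL, at 10.56 and 10.92 against 10.13 and 10.16.

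Among amino acid carriers Slc38a2 (SNAT2), highest in mean level per kb, read 15.67 and 15.52 in aOPC against 16.79 and 16.71 in aOL. The spread within each population was small against the gap, and aOL was 2.23-fold higher (1.16 ± 0.19, limma adjusted p = 0.127). The proton-coupled carriers Slc36a4 and Slc36a1, which act at lysosomes and the cell surface, were higher in aOL by 1.04 ± 0.21 and 1.90 ± 0.42, with adjusted p of 0.134 and 0.14 (limma). Slc36a1 read 6.63 and 7.23 against 9.29 and 8.37, and Slc36a4 read 9.24 and 9.55 against 10.47 and 10.41, both without overlap. Slc38a9, the lysosomal arginine sensor for mTORC1, read 10.87 and 11.50 against 11.27 and 11.04 and overlapped. Slc38a3 (SNAT3), a glutamine carrier typical of astrocytes, read 8.19 and 7.78 against 7.30 and 7.06, lower in aOL by -0.80 ± 0.25 (limma adjusted p = 0.177), while 3 of the 9 astrocyte markers also lay lower in both aOL libraries and 1 lay higher. The median difference of the 9 was -0.64, with 2 of them above 0. Their summed log2 level was 13.88 and 13.44 in aOPC but 14.38 and 14.50 in aOL, where Ndrg2, the most abundant of them, stood at 14.15 and 14.20 after 12.68 and 12.50 in aOPC. The part of these markers in the Slc38a3 difference was not tested.

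No carrier of neurotransmitter amino acids or taurine was called. The glycine carrier Slc6a9 read 15.28 and 15.22 in aOPC against 15.51 and 15.50 in aOL, a small gap of 0.25 ± 0.19. The glutamate carrier Slc1a3 (GLAST) read 12.38 and 12.52 against 12.91 and 12.97 (0.49 ± 0.19, limma adjusted p = 0.223), and the taurine carrier Slc6a6 read 13.66 and 13.53 against 14.08 and 13.87 (0.38 ± 0.20). None of these 3 overlapped between populations. Slc1a2 (GLT-1) and Slc6a11 (GAT3) swung between the aOPC libraries instead, at 10.20 and 8.96 for Slc1a2 and 9.12 and 6.05 for Slc6a11, with both aOL values inside or near that range. The neuronal glutamate carrier Slc1a1 did the same, at 10.22 in aOPC replicate 2 and between 8.27 and 8.50 in the other 3 libraries.

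The neutral amino acid carriers Slc1a4 (ASCT1) and Slc6a15 were higher in aOL by 0.77 ± 0.28 and 1.09 ± 0.33, with adjusted p of 0.207 and 0.177 (limma). The Slc1a4 difference was 0.49 without aOL replicate 3. The Slc7 carriers whose groups did not overlap were lower in aOL. Slc7a6 (y+LAT2) read 10.07 and 10.17 in aOPC against 9.20 and 9.59 in aOL (-0.72 ± 0.23, limma adjusted p = 0.185), and the cationic carrier Slc7a2 (CAT2) read 7.26 and 8.07 against 6.75 and 6.50 (-1.04 ± 0.35, limma adjusted p = 0.192), both without overlap. The Slc7a2 difference was -1.44 without aOPC replicate 2 and -0.63 without aOPC replicate 3. The CD98 heavy chain Slc3a2 stayed between 12.9 and 13.5, and Slc43a2 between 13.5 and 13.8. The cystine and glutamate exchanger Slc7a11 (xCT), which feeds glutathione synthesis, read 7.03 and 8.66 against 8.12 and 9.09 and overlapped. Slc7a8 sat at 1.80 in aOPC replicate 3, a value shared by 96 genes of that library, and between 5.48 and 6.73 elsewhere. Slc1a5 (ASCT2) and Slc38a1 (SNAT1) overlapped, between 7.91 and 8.64 and between 8.15 and 9.38.

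Because the median progenitor marker of aOPC replicate 3 did not lie above the aOL libraries, the counts were also taken without each aOPC library. Without aOPC replicate 3, 6 carriers were called higher in aOL and 4 lower, and without aOPC replicate 2, 11 were called higher and 4 lower. Such a fit rests on 1 aOPC library that is assumed to vary as the aOL libraries do, and over all genes it called 1323 higher and 1021 lower without aOPC replicate 3, and 2026 higher and 1969 lower without aOPC replicate 2. In each of these fits 46 carriers passed the filter on low values, and Slc16a9 and Slc16a11, which pass through aOPC alone, were not tested. Slc2a12, Slc5a3, Slc6a15, Slc36a4 and Slc38a2 were among those called higher both ways, of which Slc2a12 passes the filter through aOL alone and could not be tested without either aOL library. None of the 46 was called lower both ways. Against aOPC replicate 2 alone the differences of the 5 called higher were 2.78, 1.71, 0.70, 1.19 and 1.08, in the same order.

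Enzymes and chaperones that work with the carriers were counted from a list of 35, of which 31 were tested. None was called, 2 had an unadjusted p under 0.05 in the direction of aOL (12.1% of all genes) and 5 in the direction of aOPC (12% of all genes), and the median difference was -0.19. Emb, the chaperone embigin that brings monocarboxylate carriers to the membrane, read 8.57 and 7.96 in aOPC against 4.69 and 2.83 in aOL. The groups did not overlap (-4.51 ± 0.70, limma adjusted p = 0.122), but both aOL values of Emb lie under the filter of 5, so the size is uncertain. The other chaperone Bsg (basigin) read 13.83 and 14.40 against 13.51 and 13.51. Hexokinase Hk1 was higher in aOL by 0.85 ± 0.21 and the GABA transaminase Abat by 0.65 ± 0.22. Gamt, which makes creatine, was lower by -0.98 ± 0.20 and brain creatine kinase Ckb by -0.94 ± 0.24. The mTORC1 scaffold Lamtor1 was lower by -1.01 ± 0.28 and the glutathione synthetase Gss by -0.60 ± 0.19. The adjusted p of these ran from 0.122 to 0.196 (limma).

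In the RRHP data carrier gene bodies carried more 5hmC reads per CpG position than their promoters in every library. As CPM, the standard scaling of counts by the library total, body positions outside promoters had 0.875 and 1.03 in aOPC against 1.06 and 0.969 in aOL, and promoter positions had 0.399 and 0.217 in aOPC against 0.203 and 0.245 in aOL. Over all genes the values were 0.817 and 0.908 against 0.929 and 0.885 in bodies, and 0.409 and 0.243 against 0.233 and 0.264 in promoters. The aOPC replicate 2 library stood apart in promoters and CpG islands, with 5.74% of its reads in islands against 2.38% to 3.32% in the others.

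Gene bodies differed widely among carriers and little between populations. The densest were Slc38a9 at a mean of 1.78 CPM per position over 48 positions, Slc43a2 at 1.53 over 51 and Slc38a2 at 1.41 over 40. The sparsest were Slc7a6os at 0.0866, Slc5a6 at 0.107 and the creatine carrier Slc6a8 at 0.138. Across the 48 genes, gene body CPM per position and RNA level per kb were loosely related (Spearman rho 0.24), a description over genes that share the same libraries.

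No carrier gene body was called between populations (edgeR quasi-likelihood test, adjusted p under 0.05 over 18488 bodies), higher in aOL, where 0.162% of all bodies were called, or lower, where 0.687% were. At an unadjusted p under 0.05, 3 carriers were higher, against 2.82% of all bodies, and 1 was lower, against 4.48%. Without aOPC replicate 3, the deeper aOPC library, 7 carrier bodies were called higher and 1 lower, and without aOPC replicate 2 there was 1 each way. Over all bodies the first of these fits called 1928 higher and 2318 lower of 18790, and the second 236 higher and 373 lower of 18637. DESeq2 with all libraries called no carrier body. The median log2 fold change of the 48 was 0.04 beside -0.0027 over all bodies, and in the 40 carriers with at least 50 reads in every library it ran from -0.38 to 0.36. Slc7a11 had 32.5, 35.6, 27.8 and 25.1 CPM in aOPC replicate 2, aOPC replicate 3, aOL replicate 2 and aOL replicate 3, without overlap and lower in aOL (-0.38 ± 0.14, edgeR adjusted p = 0.498).

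The body of the creatine carrier gene Slc6a8, on the X chromosome, rested on 23, 25, 53 and 185 reads in the order above, and its fold change was 1.21 ± 0.50 (edgeR adjusted p = 0.619). X-linked bodies as a whole lay at a median of 0.23, with 519 of 674 above 0, while bodies on other chromosomes lay at -0.01.

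Among promoters 41 carriers passed the count filter, and none was called higher, where 0.418% of 14579 promoters were, or lower, where 0.35% were (edgeR, adjusted p under 0.05). At an unadjusted p under 0.05, 3 were higher, against 4.18% of all promoters, and 1 was lower, against 1.79%. DESeq2 called none. Without aOPC replicate 3 edgeR called 3 higher, Slc6a8, Slc6a11 and Slc16a7, while over all promoters it called 1471 of 15190 higher. The median was -0.10 beside -0.01 over all promoters. Slc6a8 came closest, with 26, 30, 57 and 189 reads (1.53 ± 0.40, edgeR adjusted p = 0.0815). As CPM these were 3.66 and 1.75 in aOPC against 3.58 and 6.99 in aOL, so the groups overlapped on that scale. X-linked promoters as a whole lay at a median of 0.84, with 96.8% of 504 above 0, against -0.03 elsewhere. On X lay 2.84% and 2.45% of the aOPC reads and 2.70% and 3.13% of the aOL reads, and the part of this shift in the values of Slc6a8 was not tested. Off the X chromosome Slc6a11 was higher, at 25, 58, 79 and 132 reads (0.91 ± 0.41), and Slc7a8 lower, at 32, 34, 15 and 35 (-0.92 ± 0.42). Their adjusted p were 0.751 and 0.749 (edgeR).

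RNA and 5hmC differences were set side by side for each carrier. Over the 48 genes the RNA difference and the gene body log2 fold change had a Pearson r of 0.05 and a Spearman rho of 0.10, and 26 of 48 had the same sign. The 40 bodies with at least 50 reads in every library gave 0.14 and 0.21, and the 41 promoters gave 0.02 and -0.04. Slc16a11 and Slc16a9, the carriers with the largest RNA differences toward aOPC, had body fold changes of 0.06 ± 0.24 and -0.01 ± 0.13.

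**Figure D3:**
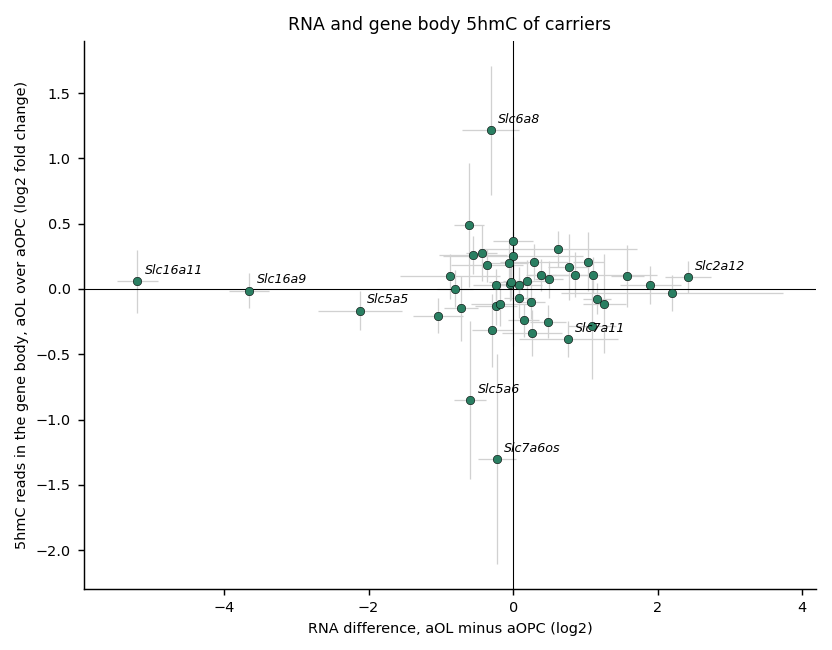
RNA difference (aOL minus aOPC, log2, horizontal) against the log2 fold change of 5hmC reads in the gene body (vertical) for carriers, with standard errors. The gene bodies of Slc16a11 and Slc16a9 lie near 0, and the wide vertical values belong to Slc6a8, Slc5a6 and Slc7a6os, which have few reads.

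Differences appeared at the level of CpG positions. Of 2173 carrier positions 694 in 45 genes had at least 10 reads in at least 2 libraries and were tested. Of these 13 were called higher in aOL (1.87%, against 1.21% of all 443062 positions) and 7 lower (1.01%, against 1.08%), in 13 genes (edgeR, adjusted p under 0.05). At 16 of the 20 the lower population had at most 3 reads in either library, so most calls separate presence from near absence. Where a population had no read at all, a fold is given as a bound from 3 reads per library, which covers counting error only. By DESeq2 11 of the 20 were called. Without aOPC replicate 2 there were 2 lower positions and without aOPC replicate 3 there were 22, while over all positions 920 of 435414 and 15643 of 389572 were called lower. These are not the same positions, since 5 of the 7, those of Slc7a2, Slc5a5 and Slc7a10, had 10 reads in the aOPC libraries alone and failed the filter in both fits. All 13 higher positions had 10 reads in the aOL libraries alone, so they passed the filter through aOL and could not be tested without either aOL library.

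**Figure D4:**
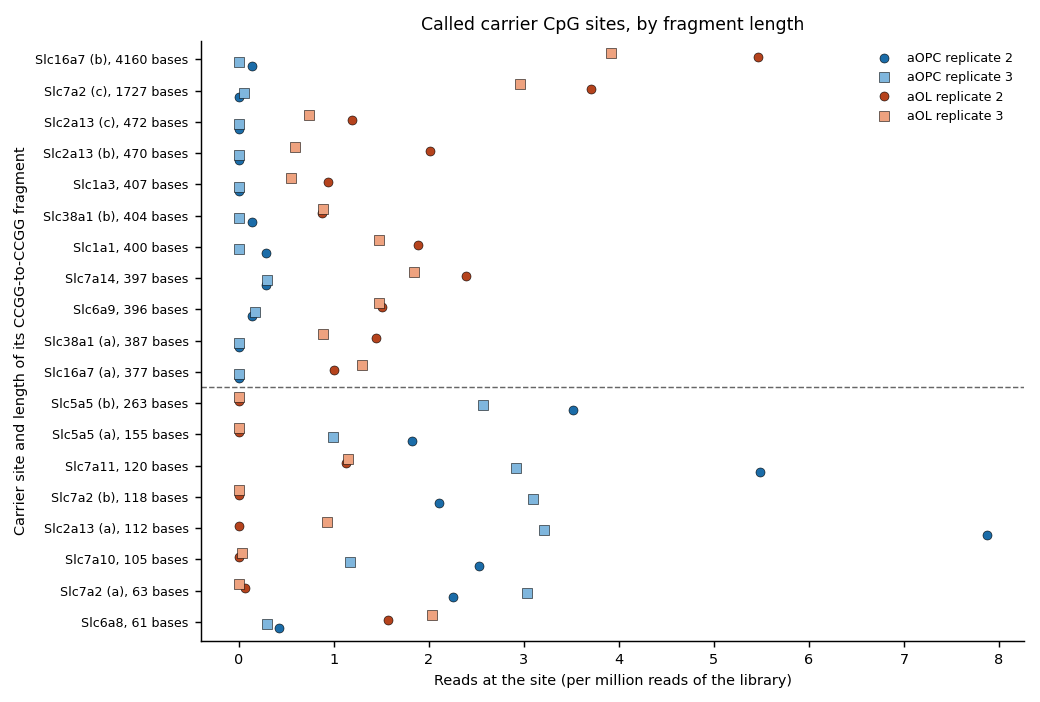
CPM at called carrier positions, with 1 point per library, ordered by the length in bases of the fragment between the CCGG of the site and the next CCGG in the direction of the read. Above the dashed line at 350 bases every site plotted is higher in aOL, and below it 7 of 8 are lower, the exception being Slc6a8.

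The 7 positions lower in aOL lay in 5 genes. Slc7a2 had 2 in intronic sequence. Position 40896057 of chromosome 8 on the plus strand had 15 and 53 reads in aOPC against 0 and 0 in aOL, which is lower in aOL by at least 17.4-fold (adjusted p by edgeR = 6.45e-05), and position 40896239 on the minus strand had 16 and 52 against 1 and 0 (edgeR adjusted p = 8.68e-05). A stretch of 201 bases that holds both is shown on the plus strand with every CCGG in capitals, because a further CCGG lies between them.
Slc7a2 intron, chr8:40896048-40896248, plus strand: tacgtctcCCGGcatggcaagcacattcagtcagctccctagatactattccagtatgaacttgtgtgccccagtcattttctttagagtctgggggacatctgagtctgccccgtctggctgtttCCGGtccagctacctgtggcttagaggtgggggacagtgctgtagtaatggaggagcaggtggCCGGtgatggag
The stretch has 3 CCGG. The middle one had 1 and 6 reads in aOPC on the plus strand and 0 and 5 on the minus strand, and none in aOL on either, so the outer ends were read and the inner ends hardly at all. Another called position of Slc7a2, also intronic and at 40885762, had the opposite direction, with 0 and 1 reads in aOPC against 59 and 80 in aOL (edgeR adjusted p = 9.34e-05). Slc7a2 RNA was lower in aOL by 1 unit of log2 without being called, and its whole body had 38.9, 45.8, 36.8 and 37.8 CPM.

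Slc5a5, whose RNA was also lower in aOL, had 2 positions lower. The promoter position 70893388, upstream of the gene start at -631 bases, had 25 and 44 reads in aOPC against 0 and 0 in aOL, which is lower in aOL by at least 20.3-fold (adjusted p by edgeR = 6.48e-05). On the other strand of the same CCGG the reads were 16, 38, 41 and 61, present in all libraries. The exonic position 70885008 had 13 and 17 against 0 and 0 (edgeR adjusted p = 0.00139). The far ends of both fragments were likewise read in aOPC only, at 6 and 31 and at 9 and 12 reads. In the D-serine and alanine carrier Slc7a10, position 35192465 had 18 and 20 reads against 0 and 1 (edgeR adjusted p = 0.00102), whereas the far end of its fragment had 11, 23, 18 and 33. Slc2a13 had 56, 55, 0 and 25 reads at 91353157 and Slc7a11 had 39, 50, 18 and 31 at 50377537, with adjusted p of 0.0136 and 0.0198 (edgeR).

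The 13 positions higher in aOL lay in 10 genes. The promoter position 125328653 of Slc16a7, on chromosome 10, had 1 and 0 reads in aOPC against 87 and 106 in aOL (edgeR adjusted p = 6.56e-05). On the other strand of that CCGG the reads were 56, 103, 103 and 160, so only 1 side of the site separated the populations. An intronic position of the same gene, 125265124, had 0 and 0 against 16 and 35, which is higher in aOL by at least 3.85-fold (adjusted p by edgeR = 0.00426). Slc38a1 had 0 and 0 against 23 and 24 at 96603635, which is higher in aOL by at least 3.91-fold (adjusted p by edgeR = 0.00557), with 16, 55, 64 and 93 on the other strand. Slc6a9 had 1 and 3 against 24 and 40 at 117864016, in a coding exon (edgeR adjusted p = 0.0134), and Slc1a1 had 2 and 0 against 30 and 40 at 28867766 (edgeR adjusted p = 0.0154). Slc7a14 had 2 and 5 against 38 and 50 at 31237050 and Slc2a13 had 0 and 0 against 19 and 20 at 91332639 and 0 and 0 against 32 and 16 at 91404579, with adjusted p between 0.00932 and 0.0176 (edgeR).

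The direction of a called position went with the length of the fragment it was read from. Reads at the plus strand of a CCGG and at the minus strand of the next CCGG come from the 2 ends of 1 fragment: over 439073 fragments of 40 to 350 bases the counts of these ends, summed over libraries as log2 of the count plus 1, had a Pearson r of 0.59, against 0.04 for the strands of 1 CCGG. The 7 lower positions were on fragments of 63 to 263 bases, measured to the next CCGG of the genome. For the 2 lower Slc7a2 positions that next CCGG is the middle one shown above, whose ends were hardly read. Of the 13 carrier positions higher in aOL, 12 were on fragments of 377 bases or more. Among them were the Slc7a2 position, on 1727 bases, and the Slc16a7 promoter position, on 4160 bases. The exception was Slc6a8, chosen for mention after its values were seen, at position 73673361 in a CpG island and an untranslated region, with 3 and 5 reads in aOPC against 25 and 55 in aOL on a fragment of 61 bases (edgeR adjusted p = 0.0363).

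The same held over the whole table. Positions on fragments of 350 bases or more were called higher at a rate of 11.2% of 41602 and lower at 0.264%, while those on shorter fragments were called higher at 0.184% of 400976 and lower at 1.16%. Among carriers 12 of 55 tested positions on the longer fragments were called higher and none lower. Fragments of 350 to 600 bases held 2.17% and 1.95% of the aOPC reads and 5.04% and 4.23% of the aOL reads. Those of 600 bases or more held 3.91% and 4.06% of the aOPC reads and 4.52% and 4.46% of the aOL reads. When positions on fragments under 350 bases were fitted alone, no carrier position was called higher and 7 of 639 were called lower. Over all 400976 positions that fit called 587 higher and 4338 lower. Population and this difference between the libraries cannot be told apart here.

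The share of positions called with at most 3 reads in each library of the lower population varied along the genome. It was 1.75% over all tested positions, and over 532 bins of 5 Mb the median was 0.550%. Among genes with lower positions it was 9.004% in the bin of Slc5a5, 6.16% in that of Slc7a2, 4.36% in that of Slc7a10, 1.14% in that of Slc2a13 and 0.764% in that of Slc7a11. Slc7a2 and Slc2a13 also held higher positions in the same bins. Among genes with higher positions alone it was 3.40% for Slc16a7, 1.43% for Slc7a14, 1.26% for Slc6a9, 0.911% for Slc6a8, 0.475% for Slc38a1, 0.426% for Slc1a1 and 0.136% for Slc1a3. The part of such stretches in the calls was not tested.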

How the data were processed

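RNA and DNA were taken from the same sorted cells, and 8 libraries were analysed: 2 each of aOPC and aOL for RNA and for RRHP. The RNA tables hold log2 normalized values per gene as deposited. The authors aligned reads to mm10 with BWA, counted unique exon reads and used DESeq2 (1.2.5 in the submitters' processing notes), and how the log2 values were made is not given in the sources used here. The RNA tables hold no read counts, and the mapped reads that the methods list per library were not used here. The RRHP tables hold raw read counts per CpG and strand as deposited by the authors, with promoter, exon, intron and CpG island labels, on mm10. The RRHP aligner is not given in the sources used here. File positions count from 0 and were raised by 1.

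RNA values were tested by limma 3.58.1 with population as the only term, over genes that reached 5 on the log2 scale in 2 or more libraries. RRHP counts were tested by edgeR 4.0.16 (quasi-likelihood, TMM) per position with 10 reads in 2 libraries, and summed over gene bodies (exon or intron) and promoters after filterByExpr. A position that a table did not list was given 0 reads. Standard errors of edgeR fold changes were taken as the fold change over the root of F. All p-values were adjusted over the whole table. R 4.3.3 and Python were used, exon lengths came from GENCODE vM21, and sequences from GRCm38. Both tests were run on simulated data with known changes. The members and gene lists were chosen with earlier results of these data known. The log2 levels per length use the deposited value minus log2 of the exon length in kb. The split at 350 bases, the only one tried, the 5 Mb bins, the X chromosome comparison and the RNA differences given for Slc1a3, Slc2a1, Slc6a6, Slc6a9 and Slc16a1 were chosen after seeing the data. Genes were named by a rule: a list of main carriers, carriers with an unadjusted RNA p under 0.05, called positions by adjusted p up to 10 each way, and the highest and lowest of each family. Replicate numbers do not pair libraries, because same-numbered libraries come from different reporter lines. Alternatives were other scalings, filters, DESeq2 1.42.0, a replicate block, leaving out each library and, chosen after seeing the data, short fragments alone and crossed numbers. Values of some members are counted in the totals but not reported here.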

Additional observations from a re-analysis of the deposited data

How the results depend on the processing

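Scaling of the RNA values by medians or quantiles changed no count of called carriers, but the deposited libraries already had medians of 10.5693 to 10.5715 and the same highest value, so these alternatives could hardly move a call. Without the filter on low values 0 carriers were called lower, and 0 of all 11315 genes were called either way. With each library left out in turn, 0 to 11 carriers were called higher and 2 to 4 lower in RNA, 4 to 15 and 3 to 10 had an unadjusted p under 0.05, and the median difference ran from 0.0605 to 0.211. The Slc16a1 difference ran from -0.554 to 0.0906 and the Slc2a1 difference from -0.283 to 0.443, both changing sign. Carrier gene bodies called ran from 0 to 7 higher (7 without aOPC replicate 3) and 0 to 1 lower, with medians from -0.0421 to 0.124, and promoters from 0 to 3 higher. Slc6a8 was the 1 promoter called without the count filter. Called positions ran from 0 to 16 higher and 2 to 22 lower. None was higher without either aOL library, because a position with reads in aOL alone then fails the filter by construction. DESeq2 called 5 positions higher (2328 of all 443062). With 10 reads asked of every library 0 were higher and 1 lower (229 and 261 of all 171055), and with 5 reads in 2 libraries 14 were lower (8465 of all 667177). On fragments under 350 bases alone 0 were higher (587 of all 400976). A fit that leaves out a library assumes that the lone one varies like the others. The share of all genes with an unadjusted p under 0.05 in these fits is not given here. The carrier counts at that threshold therefore cannot be set against other genes. Over all positions calls also rose both ways without aOPC replicate 3, the fit with the most called carrier positions in each direction. The cause of these changes was not tested, other than where stated.

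The replicate block, which adds the replicate number, called 2 carriers lower in RNA (Slc16a11 and Slc16a9), left 4 lower at an unadjusted p under 0.05 and called 14 positions lower. Over all genes it called 30 higher and 97 lower, against 1 and 8 without it, over all positions 5551 lower, against 4772, over all bodies 46 higher, against 30, and over all promoters 38 higher, against 61. It changed no other carrier count by more than 1.5 times. Deviations of same-numbered libraries correlated at -0.07 in RNA, -0.41 in gene bodies and -0.44 in promoters. With the numbers crossed, an alternative chosen after seeing the data, the block called 1 promoter higher and 16 positions lower, and over all promoters and positions 249 and 6673.

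Precision is limited by 2 libraries a population and, in RRHP, by the 7113237 reads of aOPC replicate 2, where 3 reads stand for 0.422 CPM. Library totals in place of TMM moved the median of all promoters to -0.60 and that of the carrier promoters to -0.70, and left the carrier promoter calls at 0.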

Other observations

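A further 54 symbols of these 10 families had 5hmC positions but no entry in the RNA tables. Of their 603 tested positions 5 were called higher in aOL and 5 lower (edgeR adjusted p under 0.05), where 1.21% and 1.08% of all positions were. None of 50 gene bodies and none of 35 promoters was called by edgeR, where 0.162% and 0.687% of all bodies and 0.418% and 0.35% of all promoters were called higher and lower. At an unadjusted p under 0.05 there were 2 bodies and 0 promoters, against 2.82% higher and 4.48% lower of all bodies and 4.18% and 1.79% of all promoters.

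The neuronal glycine carrier Slc6a5 held the position with the lowest adjusted p among them, at 49958316 on chromosome 7, with 38 and 124 reads in aOPC and 0 in both aOL libraries. A different Slc6a5 position, 49912924, had the reverse pattern, with 0 in both aOPC libraries and 14 and 13 in aOL. The whole Slc6a5 body had 318 and 736 reads in aOPC and 499 and 727 in aOL. It was lower in aOL without being called (-0.60 ± 0.13, edgeR adjusted p = 0.086). The GABA carrier Slc6a13 (GAT2) had called positions in both directions as well: 121334887 and 121328790 were lower in aOL, at 19 and 33 and at 13 and 15 reads against 0, and 121328128 and 121306853 were higher, at 19 and 49 and at 22 and 21 reads. The noradrenaline carrier Slc6a2 had 18 and 44 reads in aOPC and 0 and 1 in aOL at 92983157.

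Slc7a5 (LAT1), the light chain that pairs with Slc3a2, had 165, 186, 194 and 346 reads in its gene body in aOPC replicates 2 and 3 and aOL replicates 2 and 3, with a log2 fold change of -0.39 ± 0.28 (edgeR adjusted p = 0.772). The cationic carrier Slc7a1 had 1007, 2804, 2758 and 4325 reads (0.11 ± 0.13), and the aromatic amino acid carrier Slc16a10 had 195, 499, 503 and 763 (0.06 ± 0.14).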
